A study of Homo sapiens with 8 samples.

Results

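The 9 genes described here are core parts of the NRF2 pathway, by which cells answer oxidative stress: the transcription factor gene NFE2L2, which encodes NRF2, its repressor gene KEAP1, and 7 genes known as NRF2 targets (HMOX1, NQO1, GCLC, GCLM, TXNRD1, SRXN1 and SLC7A11). They were chosen by their symbol in the files. All 9 were found among 23105 gene symbols, and all 9 were among the 11431 genes tested. The study transfected 2 human fibroblast lines, named line 2 and line 1 below, either with a small interfering RNA (siRNA) that targets SUPT4H1 or with a control siRNA without a target. SUPT4H1 encodes SPT4, a subunit of the transcription elongation factor DSIF. Each line received each siRNA in 2 replicates, so 4 SUPT4H1 siRNA samples stood against 4 control siRNA samples, and polyA RNA was sequenced. Both lines carry the label of population control fibroblasts, grew in DMEM with serum and antibiotics, and were transfected with Lipofectamine RNAiMax. The labels give neither the time after transfection nor whether replicates were separate cultures, so the spread behind every p-value here is that of these samples alone and may be technical. These 2 lines do not stand for fibroblasts in general.

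In unstressed cells KEAP1 binds NRF2 and hands it to a ubiquitin ligase for degradation. Oxidants and electrophiles modify cysteines of KEAP1, NRF2 then accumulates, pairs with small MAF proteins and binds antioxidant response elements near its target genes. The targets supply glutathione and thioredoxin, reduce quinones and break down heme. NRF2 is controlled mainly as a protein, and no protein was measured here.

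SUPT4H1 itself fell (log2 change -3.43 ± 0.035, SE; limma adjusted p = 3.83e-11). It was at 1.69 and 1.74 FPKM (a fragment count per transcript length and per sequencing depth) in SUPT4H1 siRNA samples of line 2, against 26.2 and 28.3 FPKM in control siRNA samples of that line. In line 1 it was at 1.37 and 1.43 FPKM with SUPT4H1 siRNA and at 25.6 FPKM in both control samples. The ratio of mean FPKM, SUPT4H1 siRNA over control siRNA, was 0.063 in line 2 and 0.0546 in line 1. The log2 change of SUPT4H1 was taken on FPKM + 1, which understates its fall. The FPKM of each sample summed to between 288293 and 305680, and 11321 to 11447 rows reached 1 FPKM; the number of fragments per sample is not given in the files. All 10 fibroblast markers reached a mean of 1 FPKM. The 4 endothelial markers stayed under 0.1 FPKM in every sample, and so did EPCAM, CDH1, KRT5 and KRT14 of epithelium, CD3E of leukocytes, and MLANA, TYR and DCT of melanocytes. PTPRC of leukocytes and PMEL of melanocytes reached at most 0.206 and 0.126 FPKM. The other markers were KRT19, at 0.24 to 9.37 FPKM with SUPT4H1 siRNA and 0.159 to 5.13 FPKM with control siRNA, and CD68, a lysosomal gene also active outside leukocytes, at 56.2 to 75.2 FPKM with SUPT4H1 siRNA and 43 to 48.8 FPKM with control siRNA. The part of these 2 genes' sources in the results below was not tested. In bulk samples, fewer cells of a type and less RNA per cell cannot be told apart.

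The letters of the antioxidant response element were looked for near the start sites, since the members share NRF2 as their known regulator. RefSeq promoter windows of GRCh38.p14, from 250 bases before to 50 bases after a transcription start, were held for 7 of the 9 genes (10 windows in all). HMOX1 and SLC7A11 had no window. The core TGACNNNGC was searched on both strands and occurred in 4 of the 10 windows, belonging to KEAP1, GCLM and TXNRD1. Of all 35116 windows of the same length, 13.3% hold it. The 4 stretches below run 5′ to 3′ on the gene's strand, from 120 bases before to 20 bases after the start, and capitals mark the matches.
KEAP1, second start, chr19:10502752-10502891, minus strand: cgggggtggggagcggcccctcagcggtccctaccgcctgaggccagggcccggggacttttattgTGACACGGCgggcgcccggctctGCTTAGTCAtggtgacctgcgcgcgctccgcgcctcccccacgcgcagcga
GCLM, chr1:93909411-93909550, minus strand: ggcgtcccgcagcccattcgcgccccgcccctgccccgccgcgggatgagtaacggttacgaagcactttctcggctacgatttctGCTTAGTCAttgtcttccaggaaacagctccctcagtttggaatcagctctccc
TXNRD1, first start, chr12:104215659-104215798, plus strand: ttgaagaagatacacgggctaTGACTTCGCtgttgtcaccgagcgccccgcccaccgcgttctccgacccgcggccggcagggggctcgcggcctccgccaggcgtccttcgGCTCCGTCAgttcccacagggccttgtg
TXNRD1, second start, chr12:104286912-104287051, plus strand: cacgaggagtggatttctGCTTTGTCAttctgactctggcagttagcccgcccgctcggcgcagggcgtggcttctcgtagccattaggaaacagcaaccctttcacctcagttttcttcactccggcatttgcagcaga
The match of GCLM at positions -34 to -26 and that of KEAP1 at -31 to -23 have the same letters when read on the other strand, TGACTAAGC. KEAP1 has another match at -54 to -46. The matches of TXNRD1 lie at -99 to -91 and at -8 to 1 of the first start and at -102 to -94 of the second. The AP-1 motif TGANTCA, which can overlap an antioxidant response element and is held by 7.71% of all windows, was in none of the 10, and neither was the amino acid response element TGATGNAA, held by 3.62%. A match is a description of letters. No match says only that these letters are not in that window, and binding was not measured.

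**Figure D1:**
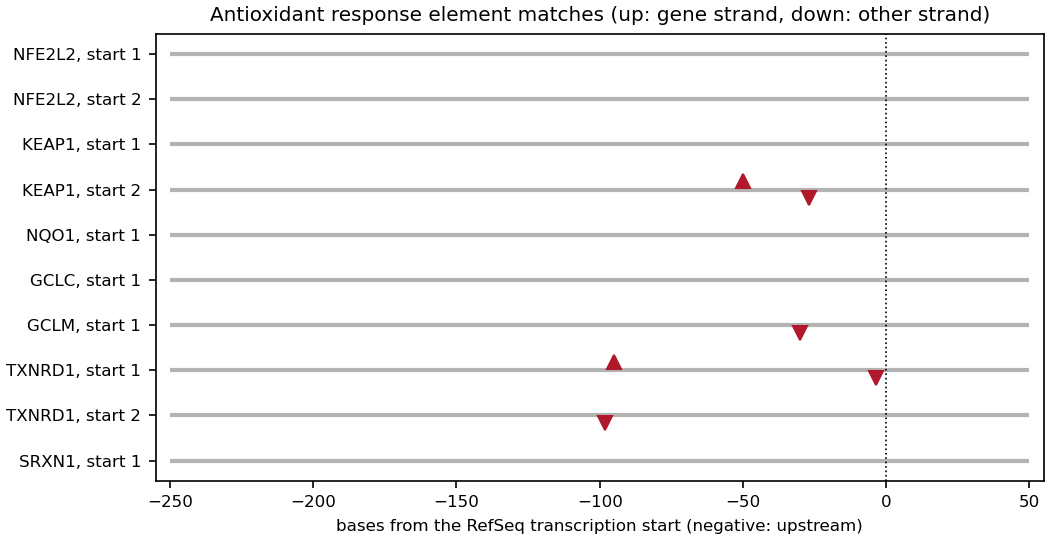
Matches to the antioxidant response element core in the 10 RefSeq promoter windows of 7 genes. The horizontal axis gives the distance in bases from the transcription start; triangles that point up are on the gene's strand, those that point down on the other strand. Only windows of KEAP1, GCLM and TXNRD1 hold a match.

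SUPT4H1 siRNA raised 4 of the 9 genes and lowered 1 when the line was held as a block (limma on log2(FPKM + 1), Benjamini-Hochberg adjusted p under 0.05 over all genes tested). TXNRD1, NQO1, SRXN1 and KEAP1 rose, HMOX1 fell, and NFE2L2, GCLC, GCLM and SLC7A11 did not pass. Of all 11431 genes tested, 26.9% were called higher and 15.2% lower, so the call rate of the 9 genes is to be read against a transcriptome in which many genes passed. Higher calls made up 63.8% of all calls, and 50.1% after scaling the samples by median ratios, a step that moved the median of all genes to 0.001. The median log2 change was 0.11 over the 9 genes, with 7 of 9 above 0, and 0.031 over all genes tested, with 6839 above 0. Without the line as a block, limma called 0 of the 9 genes in either direction, and 3 had an unadjusted p under 0.05 (HMOX1, TXNRD1 and SRXN1).

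**Figure D2:**
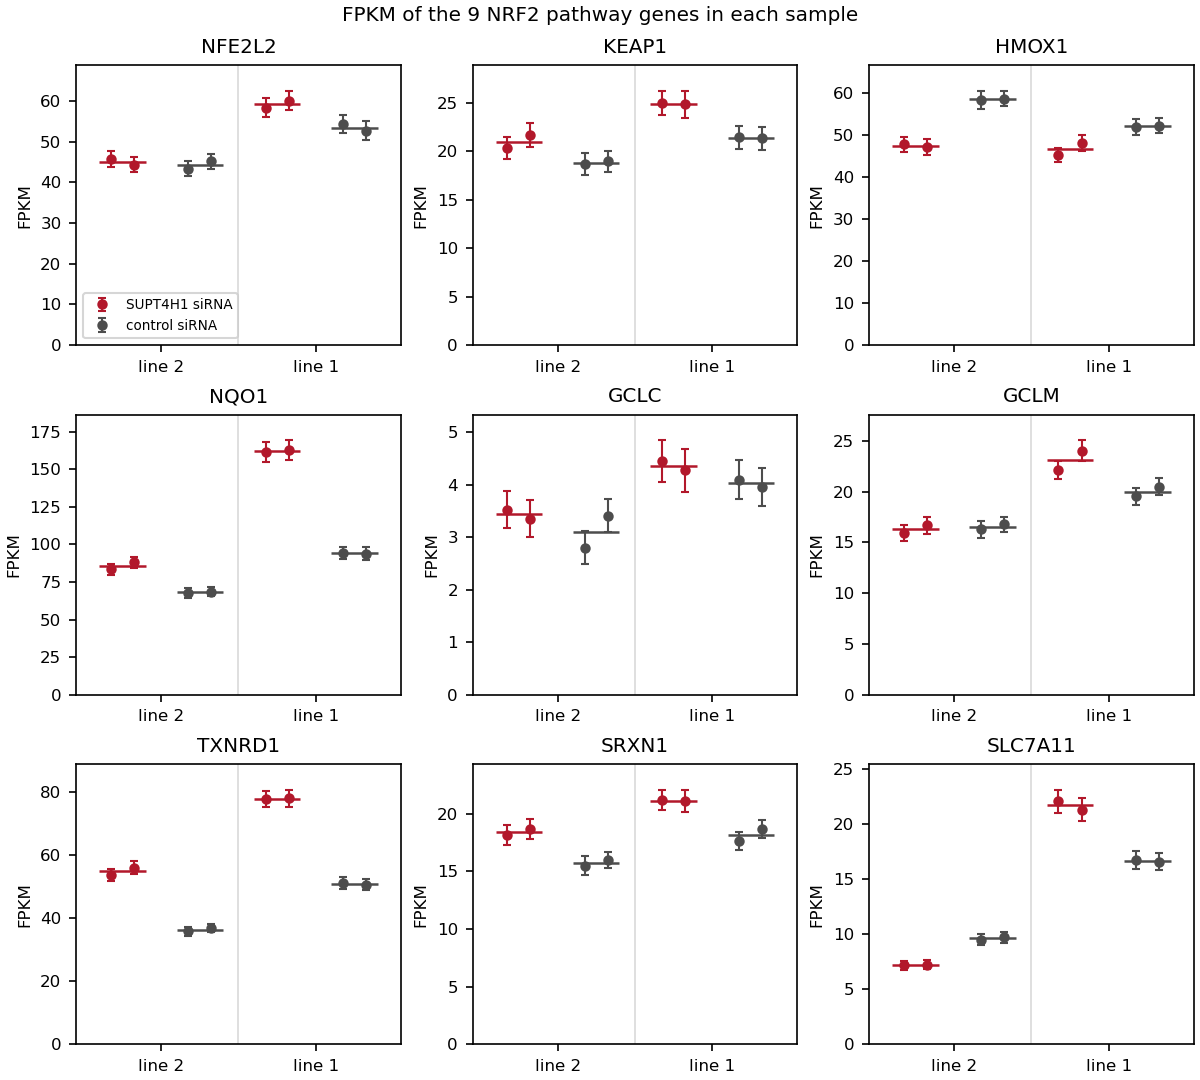
FPKM of each gene in each of the 8 samples, with SUPT4H1 siRNA in red left of control siRNA in grey within each line. Points are samples, error bars are the interval bounds deposited by the authors, and horizontal lines are means of 2 replicates. TXNRD1, NQO1, SRXN1 and KEAP1 lie higher with SUPT4H1 siRNA in both lines, and SLC7A11 lies lower in line 2 and higher in line 1.

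Of the 2 regulators, KEAP1 rose and NFE2L2 did not pass. NFE2L2 (hg19 chr2:178095031-178129859) was at 45.7 and 44.3 FPKM in SUPT4H1 siRNA samples of line 2, against 43.4 and 45.2 FPKM in control samples. In line 1 it was at 58.4 and 60.1 FPKM with SUPT4H1 siRNA, against 54.3 and 52.6 FPKM with control siRNA. The siRNA groups overlapped in line 2 and did not overlap in line 1. Over both lines the log2 change was 0.084 ± 0.032 (SE, n = 4 against 4) with a limma adjusted p of 0.0629. The call was gained without control replicate 2 of line 2 (log2 change 0.11, adjusted p = 0.0282 by limma) or without SUPT4H1 siRNA replicate 2 of line 2 (log2 change 0.10, adjusted p = 0.0406 by limma).

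KEAP1 (hg19 chr19:10596796-10614054), the adaptor that presents NRF2 for degradation, was at 20.3 and 21.7 FPKM with SUPT4H1 siRNA in line 2, against 18.7 and 19.0 FPKM with control siRNA. In line 1 its SUPT4H1 siRNA samples were at 25.0 and 24.8 FPKM and its control samples at 21.5 and 21.4 FPKM. The groups did not overlap in either line, and the log2 change was 0.18 ± 0.028 (SE; limma adjusted p = 9.27e-04). The level with SUPT4H1 siRNA was 11.6% above control in line 2 and 16.3% above control in line 1.

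The quinone and heme enzymes moved in opposite directions. NQO1 (hg19 chr16:69743304-69760571), which reduces quinones by taking electrons from NAD(P)H, was at 83.6 and 88.0 FPKM with SUPT4H1 siRNA in line 2, against 67.6 and 68.6 FPKM with control siRNA. In line 1 it was at 161.4 and 162.5 FPKM with SUPT4H1 siRNA, against 94.2 and 93.9 FPKM with control siRNA. Every SUPT4H1 siRNA sample was above every control sample of its line, and the rise was 26.0% in line 2 and 72.2% in line 1. Over both lines the log2 change was 0.55 ± 0.078 (SE; limma adjusted p = 5.73e-04).

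HMOX1 (hg19 chr22:35777060-35790207), heme oxygenase 1, which cleaves heme to biliverdin, iron and carbon monoxide, fell. It was at 47.8 and 47.1 FPKM with SUPT4H1 siRNA in line 2, against 58.4 and 58.7 FPKM with control siRNA, and at 45.3 and 48.2 FPKM with SUPT4H1 siRNA in line 1, against 51.9 and 52.3 FPKM with control siRNA. No SUPT4H1 siRNA sample of either line reached a control sample. The log2 change was -0.23 ± 0.035 (SE; limma adjusted p = 8.76e-04).

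The thioredoxin and sulfiredoxin genes rose in both lines. TXNRD1 (hg19 chr12:104609557-104744085), cytosolic thioredoxin reductase, was at 53.7 and 56.0 FPKM with SUPT4H1 siRNA in line 2, against 35.8 and 36.9 FPKM with control siRNA. In line 1 it was at 77.8 and 78.0 FPKM with SUPT4H1 siRNA, against 51.1 and 50.6 FPKM with control siRNA. TXNRD1 rose by 51.0% in line 2 and 53.2% in line 1 (log2 change over both lines 0.59 ± 0.024, SE; limma adjusted p = 8.16e-07). This was the largest of the 9 over both lines, by less than the SE of NQO1, and NQO1 was larger in line 1 (0.78 against 0.61) and without control replicate 1 of line 2 (0.594 against 0.587) or SUPT4H1 siRNA replicate 1 of line 2 (0.613 against 0.608). EID3, whose row overlaps that of TXNRD1, was at 0.506 to 1.54 FPKM, and use of strand is not given in the sources used here.

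SRXN1 (hg19 chr20:627268-634014), sulfiredoxin, which repairs over-oxidized peroxiredoxins, was at 18.2 and 18.7 FPKM with SUPT4H1 siRNA in line 2, against 15.5 and 16.0 FPKM with control siRNA. Its SUPT4H1 siRNA samples of line 1 were at 21.2 and 21.1 FPKM and its control samples at 17.7 and 18.7 FPKM. The groups were apart in both lines, and the log2 change was 0.21 ± 0.027 (SE; limma adjusted p = 3.20e-04). Groups of both lines were apart, in the higher direction, for 4 of the 9 genes and for 28.8% of all genes tested, and in the lower direction for 1 of the 9 genes and for 16.6% of all genes tested.

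None of the 3 glutathione genes passed over both lines. SLC7A11 (hg19 chr4:139085248-139163503), the cystine and glutamate exchanger that supplies cysteine for glutathione, was at 7.19 and 7.24 FPKM with SUPT4H1 siRNA in line 2, against 9.51 and 9.74 FPKM with control siRNA. In line 1 it was at 22.1 and 21.4 FPKM with SUPT4H1 siRNA, against 16.7 and 16.6 FPKM with control siRNA. Its siRNA groups were apart in both lines, in opposite directions, and the log2 change over both was -0.004 ± 0.123 (SE), with a 95% interval of -0.28 to 0.27 and a limma adjusted p of 0.981. The row of SLC7A11-AS1, which overlaps it, was at 0.0221 to 0.0794 FPKM.

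GCLC and GCLM encode the catalytic and the modifier subunit of glutamate-cysteine ligase, the first enzyme of glutathione synthesis. GCLC (hg19 chr6:53362140-53409927) was at 3.53 and 3.36 FPKM with SUPT4H1 siRNA in line 2, against 2.80 and 3.41 FPKM with control siRNA, and at 4.45 and 4.27 FPKM with SUPT4H1 siRNA in line 1, against 4.10 and 3.95 FPKM with control siRNA. GCLM (hg19 chr1:94352590-94375012) was at 15.9 and 16.7 FPKM with SUPT4H1 siRNA in line 2, against 16.3 and 16.8 FPKM with control siRNA, and at 22.2 and 24.0 FPKM with SUPT4H1 siRNA in line 1, against 19.5 and 20.5 FPKM with control siRNA. Both genes overlapped between the siRNAs in line 2 and were apart in line 1. GCLC passed in neither line, with a log2 change of 0.116 in line 2 (limma adjusted p = 0.194) and 0.093 in line 1 (limma adjusted p = 0.327). Over both lines the log2 change of GCLC was 0.10 ± 0.048 (SE) with a 95% interval of -0.003 to 0.21. That of GCLM was 0.088 ± 0.049 (SE) with an interval of -0.021 to 0.20. Their limma adjusted p-values were 0.107 and 0.174. GCLC passed without control replicate 2 of line 2, with a log2 change of 0.14 and an adjusted p of 0.0317 by limma. GCLC had the lowest level of the 9 genes, and the deposited intervals were widest for it, with half-widths of 8.89 to 11.3% of the value against 3.17 to 6.24% for the other 8 genes. On the log2(FPKM + 1) scale the change of such a low gene is understated.

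The ratio of GCLM to GCLC was 4.52 and 4.97 with SUPT4H1 siRNA in line 2, against 5.81 and 4.93 with control siRNA. In line 1 it was 4.98 and 5.63 with SUPT4H1 siRNA, against 4.77 and 5.18 with control siRNA. The groups overlapped in both lines, and the log2 ratio differed by -0.043, with an exact two-sided permutation p of 0.722 over the 36 arrangements within lines. The smallest p those arrangements allow is 0.0556, and over all 70 arrangements the exact two-sided p was 0.686.

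By line, 4 of the 9 genes rose and 2 fell in line 2, and 7 rose and 1 fell in line 1. In either direction, 6 of the 9 genes were called in line 2 and 8 of the 9 in line 1. Of all genes tested, 42.9% were called in line 2 and 30.7% in line 1, in either direction. Shares over all genes by direction within a line are not reported here, so the counts by direction have no such share beside them. The 4 that rose in line 2 were KEAP1, NQO1, TXNRD1 and SRXN1, and HMOX1 and SLC7A11 fell there. In line 1 these 4 rose together with NFE2L2 (log2 change 0.14 ± 0.033, SE, n = 2 against 2; limma adjusted p = 0.00856), GCLM (0.20 ± 0.044, SE; limma adjusted p = 0.00818) and SLC7A11 (0.36 ± 0.033, SE; limma adjusted p = 4.30e-05), and HMOX1 fell. The line 1 call of NFE2L2 was lost without control replicate 2 of line 1 (limma adjusted p = 0.0705) or SUPT4H1 siRNA replicate 2 of line 1 (limma adjusted p = 0.061). That of GCLM was lost without control replicate 1 of line 1 (limma adjusted p = 0.0658) or SUPT4H1 siRNA replicate 2 of line 1 (limma adjusted p = 0.0638). The line 2 call of KEAP1 was lost without SUPT4H1 siRNA replicate 2 of line 2 (limma adjusted p = 0.0603), and GCLC gained a line 2 call without control replicate 2 of line 2 (limma adjusted p = 0.0185).

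The response itself differed between the lines for 2 of the 9 genes, NQO1 and SLC7A11, by the interaction of siRNA and line. Of all genes tested, 9.89% passed that test, and 4.49% passed it with a lower log2 change in line 2 than in line 1, as both of these genes did. For NQO1 the log2 change was 0.33 ± 0.030 in line 2 and 0.78 ± 0.030 in line 1 (SE), a difference of -0.45 ± 0.042 with a limma adjusted p of 2.45e-04. For SLC7A11 it was -0.37 ± 0.033 in line 2 (limma adjusted p = 2.08e-05) and 0.36 ± 0.033 in line 1 (SE), a difference of -0.73 ± 0.047 with a limma adjusted p of 2.55e-05. TXNRD1 differed by -0.024 between the lines, with a 95% interval of -0.12 to 0.072, and SRXN1 by 0.004, with an interval of -0.11 to 0.12. GCLM missed the threshold with a difference of -0.22 (limma adjusted p = 0.0583), as did HMOX1 with -0.14 (limma adjusted p = 0.0844). Without SUPT4H1 siRNA replicate 1 of line 1 both of these passed (limma adjusted p = 0.0309 for GCLM and 0.0302 for HMOX1), so 4 of the 9 genes were called there.

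**Figure D3:**
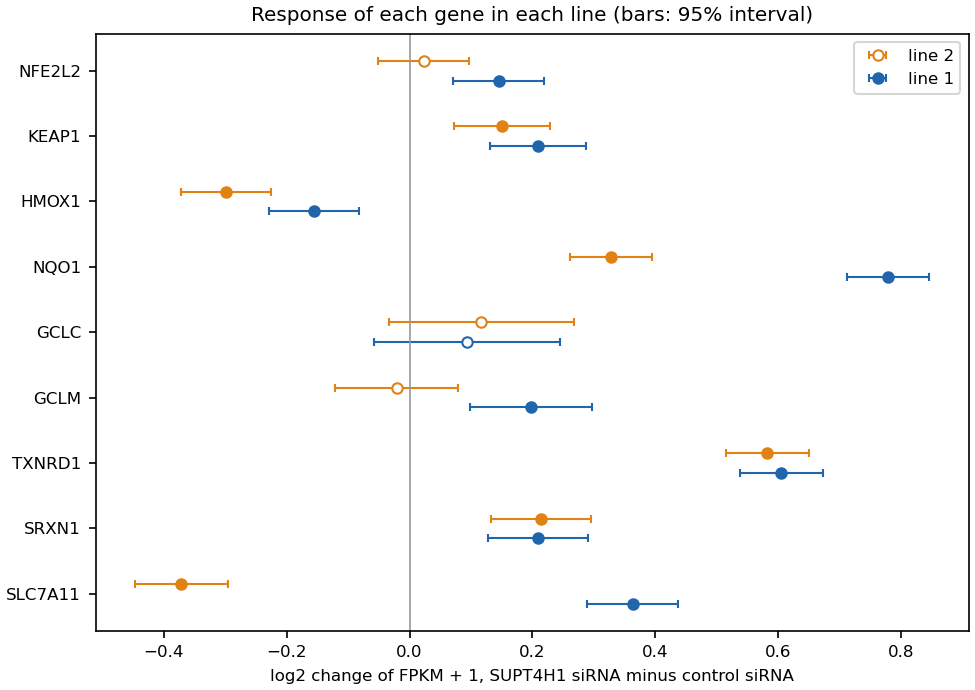
Log2 change of FPKM + 1, SUPT4H1 siRNA minus control siRNA, for each gene in line 2 (orange, above) and line 1 (blue, below), with 95% intervals from limma; filled points have an adjusted p under 0.05. NQO1 lies at 0.33 in line 2 and 0.78 in line 1, and SLC7A11 lies on opposite sides of 0.

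The lines also differed in the level of these genes. Of the 9, 8 were lower in line 2 than in line 1, against 38% of all genes tested, and HMOX1 was higher, against 27.7% of all genes tested. In control siRNA samples the mean FPKM was 9.62 in line 2 and 16.7 in line 1 for SLC7A11, 36.3 in line 2 and 50.9 in line 1 for TXNRD1, and 68.1 in line 2 and 94.0 in line 1 for NQO1. The calls and the log2 differences of line 2 minus line 1 come from all 8 samples, both siRNAs included, and not from control samples alone. These differences were -1.10 ± 0.123 for SLC7A11 (SE, limma adjusted p = 4.23e-05), -0.69 ± 0.078 for NQO1 (SE, limma adjusted p = 4.70e-05) and -0.49 ± 0.024 for TXNRD1 (SE, limma adjusted p = 1.79e-07). Mean FPKM of SLC7A11 in line 1 was 1.73 times that in line 2 with control siRNA and 3.01 times with SUPT4H1 siRNA. For NQO1 these ratios were 1.38 and 1.89, and for TXNRD1 1.4 and 1.42. The difference of 0.094 for HMOX1 (limma adjusted p = 0.0367) lost its call in 8 of the 15 alternatives, at adjusted p-values of up to 0.106. The median difference was -0.33 over the 9 genes and -0.039 over all genes tested. With 1 line on each side, these differences describe these 2 lines.

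Ranked by mean FPKM, which is scaled by length, NQO1 was highest and GCLC lowest with either siRNA. With SUPT4H1 siRNA the order was NQO1 (124 FPKM), TXNRD1 (66.4), NFE2L2 (52.1), HMOX1 (47.1), KEAP1 (23.0), SRXN1 (19.8), GCLM (19.7), SLC7A11 (14.5) and GCLC (3.90). With control siRNA it was NQO1 (81.1 FPKM), HMOX1 (55.3), NFE2L2 (48.9), TXNRD1 (43.6), KEAP1 (20.1), GCLM (18.3), SRXN1 (17.0), SLC7A11 (13.2) and GCLC (3.57). TXNRD1 ranked above NFE2L2 and HMOX1 with SUPT4H1 siRNA and below both with control siRNA. The ranges over 4 samples overlapped between neighbours from TXNRD1 to HMOX1 with SUPT4H1 siRNA and from HMOX1 to TXNRD1 with control siRNA, and from KEAP1 to SLC7A11 with either siRNA. NQO1 and GCLC did not overlap their neighbours. Within each line and siRNA, with 2 samples each, no neighbours overlapped in their FPKM values, and the order differed by line. NFE2L2 was below HMOX1 in line 2 and above it in line 1 with either siRNA. SLC7A11 was above SRXN1 with SUPT4H1 siRNA in line 1 alone. There the deposited intervals overlapped (20.31 to 22.38 FPKM for SLC7A11 and 20.3 to 22.09 FPKM for SRXN1, as an example), so that order is not resolved. Intervals of NFE2L2 and HMOX1 also overlapped with control siRNA in line 1 and with SUPT4H1 siRNA in line 2.

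The genes whose pattern over the 8 samples was most like that of TXNRD1, by Pearson's r of log2(FPKM + 1) with line means removed, were SMPD1, a lysosomal sphingomyelinase (r = 0.999), CDC42EP4 (r = 0.998) and XPNPEP1 (r = 0.998). An r of 0.9 or more was shared by 1723 genes, and the 8 samples form only 2 siRNA groups, which all these genes share. For NFE2L2 they were PRKAR2B (r = 0.996), S100PBP (r = 0.985) and PNPLA4 (r = 0.981), among 179 genes at 0.9 or more.

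The wider pathway was described in 8 lists of genes that exclude the 9, and of their 99 genes 92 were tested. Of these 44 rose and 15 fell, beside the shares over all genes of 26.9% and 15.2%; after median-ratio scaling 38 rose and 19 fell, and without the line block 7 rose and 2 fell. NADPH supply, the pool of reducing power that NQO1, TXNRD1 and glutathione reductase draw on, had 5 of 6 genes higher and 0 lower, with a median log2 change of 0.28. ME1, the gene not called over both lines, was at -0.18 in line 2 (log2, limma adjusted p = 0.026) and 0.32 in line 1 (limma adjusted p = 0.00199). TKT, transketolase, rose by 0.35 ± 0.040 and IDH1, cytosolic isocitrate dehydrogenase, by 0.32 ± 0.064 (SE, log2). The rise of IDH1 was 0.14 in line 2 and 0.49 in line 1 (log2; limma adjusted p of the difference = 0.00391), and its line 2 call was lost without control replicate 1 (0.0864) or SUPT4H1 siRNA replicate 2 (0.0826) of that line. TKT rose by 0.25 in line 2 and 0.45 in line 1 (log2; 0.0114 for the difference, lost at 0.0561 without control replicate 1 of line 1 and at 0.0507 without SUPT4H1 siRNA replicate 2 of line 2). Carbonyl, quinone and xenobiotic metabolism had 8 of 14 higher and 0 lower (median 0.18). Among them EPHX1, microsomal epoxide hydrolase, averaged 83.2 FPKM with SUPT4H1 siRNA and 54.6 FPKM with control siRNA (log2 change 0.52 ± 0.068, SE; 0.33 in line 2 and 0.71 in line 1, limma adjusted p of the difference = 5.31e-04), and OSGIN1 averaged 3.16 FPKM with SUPT4H1 siRNA and 2.01 FPKM with control siRNA (log2 change 0.47 ± 0.041, SE). AKR1C1, an aldo-keto reductase, rose by 0.49 ± 0.088 (SE, log2), but its reads can be shared with the closely related AKR1C2 and AKR1C3, so its value is uncertain.

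Among glutathione genes 13 of 22 rose and 4 fell (median 0.14), beside 26.9% higher and 15.2% lower over all genes tested (median 0.031). GPX1, a glutathione peroxidase, averaged 184 FPKM with SUPT4H1 siRNA and 139 FPKM with control siRNA (log2 change 0.39 ± 0.053, SE; 0.53 in line 2 and 0.26 in line 1, limma adjusted p of the difference = 0.00712), and GLRX, glutaredoxin, averaged 22.3 FPKM with SUPT4H1 siRNA and 16.8 FPKM with control siRNA (0.38 ± 0.033). GPX3, a secreted glutathione peroxidase, rose by 0.78 ± 0.090 (SE, log2), at a mean of 1.85 FPKM with SUPT4H1 siRNA and 0.61 FPKM with control siRNA, so that its SUPT4H1 siRNA samples carried it past the filter of 1 FPKM. With a pseudocount of 0.1 the change of this low gene was 1.42. It is counted among the 13 glutathione genes and the 44 genes of all lists that rose. GPX7, an endoplasmic reticulum peroxidase, averaged 8.80 FPKM with SUPT4H1 siRNA and 13.5 FPKM with control siRNA (-0.54 ± 0.068), and GGCT and CHAC1, which take part in glutathione breakdown, fell by 0.19 and 0.39 (log2). GGCT was at -0.26 in line 2 (limma adjusted p = 0.00369) and -0.12 in line 1 (limma adjusted p = 0.135). CHAC1 was at -0.69 in line 2 (limma adjusted p = 3.30e-06) and -0.080 in line 1 (limma adjusted p = 0.221), and the difference passed (limma adjusted p = 5.01e-04). Over both lines it lost its call without either control replicate of line 2 (limma adjusted p = 0.0544 and 0.0514) and without either SUPT4H1 siRNA replicate of line 2 (limma adjusted p = 0.052 and 0.0519).

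For the 2 lists that follow, the shares over all genes tested were 26.9% higher and 15.2% lower (median 0.031). Thioredoxins and peroxiredoxins had 5 of 10 higher and 1 lower (median 0.11). TXN, the thioredoxin that TXNRD1 reduces, averaged 136 FPKM with SUPT4H1 siRNA and 109 FPKM with control siRNA (log2 change 0.32 ± 0.044, SE), and TXNRD2, the mitochondrial reductase, averaged 7.16 FPKM with SUPT4H1 siRNA and 5.94 FPKM with control siRNA (0.23 ± 0.032). PRDX1, a peroxiredoxin, rose by 0.17 ± 0.036, and TXNIP, which binds and inhibits thioredoxin, fell by 0.31 (log2). Superoxide and peroxide removal had 4 of 6 higher and 1 lower (median 0.12). CAT, catalase, rose by 0.21, SOD1 by 0.20 and CCS, its copper chaperone, by 0.16, while mitochondrial SOD2 fell by 0.18 (log2). CCS was at 0.23 in line 2 (limma adjusted p = 0.00257) and 0.090 in line 1 (limma adjusted p = 0.165). CAT was at 0.32 in line 2 and 0.11 in line 1 (log2; limma adjusted p of the difference = 0.0243, lost at 0.0583 to 0.088 on leaving out control replicate 1 or 2 or SUPT4H1 siRNA replicate 1 of line 1, or control replicate 1 or SUPT4H1 siRNA replicate 2 of line 2). Its line 1 call was lost without either control replicate (0.0735 and 0.145) or SUPT4H1 siRNA replicate 2 (0.162) of that line. SOD2 was at -0.069 in line 2 (limma adjusted p = 0.222) and -0.29 in line 1 (limma adjusted p = 7.38e-04), and the difference (0.0472) lost its call on leaving out any 1 sample except control replicate 2 of line 2 (0.0813 to 0.141). The line 2 value of SOD2 passed without control replicate 1 of that line (-0.139, limma adjusted p = 0.0153).

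Regulators of NRF2 had 6 of 13 higher and 0 lower (median 0.11), beside 26.9% higher and 15.2% lower over all genes tested (median 0.031). Genes that promote NRF2 action and genes that oppose it are mixed in this list, so the count gives no direction of NRF2 activity. BACH1, BTRC and MAFK rose by 0.14, 0.16 and 0.13 (log2), and of these only BACH1 passed in both lines. MAFF, a small MAF partner of NRF2, averaged 8.88 FPKM with SUPT4H1 siRNA and 6.61 FPKM with control siRNA (log2 change 0.36 ± 0.094, SE). It was at 0.63 in line 2 (limma adjusted p = 2.49e-06) and 0.086 in line 1 (limma adjusted p = 0.135), and the difference passed (limma adjusted p = 4.28e-04). SQSTM1 and DPP3, whose proteins can hold KEAP1 away from NRF2, rose by 0.20 ± 0.023 and 0.28 ± 0.038 (SE, log2). Heme and iron handling had 2 of 10 higher and 2 lower (median -0.046), counts near the shares over all genes tested. TFRC, the transferrin receptor, averaged 22.8 FPKM with SUPT4H1 siRNA and 34.2 FPKM with control siRNA (-0.54 ± 0.057; -0.69 in line 2 and -0.40 in line 1, limma adjusted p of the difference = 0.0116, lost at 0.0536 without SUPT4H1 siRNA replicate 2 of line 1). SLC40A1, the iron exporter, fell by 0.20 (log2), and by 0.40 with a pseudocount of 0.1. Its means were 1.55 FPKM with SUPT4H1 siRNA and 1.92 FPKM with control siRNA. In line 2 they were 0.389 and 0.617 FPKM, and in line 1 2.71 and 3.22 FPKM. Line 1 alone thus carried SLC40A1 past the filter of 1 FPKM, and its line 2 change is near the floor. HMOX2, the constitutive heme oxygenase, averaged 11.8 FPKM with SUPT4H1 siRNA and 9.70 FPKM with control siRNA (0.25 ± 0.029), so it rose where HMOX1 fell. BLVRB, biliverdin reductase B, rose by 0.12 (log2) over both lines. It was at 0.046 in line 2 (limma adjusted p = 0.459) and 0.20 in line 1 (limma adjusted p = 0.00955). The call over both lines was lost without either control replicate or either SUPT4H1 siRNA replicate of line 1. It was also lost without control replicate 1 or SUPT4H1 siRNA replicate 2 of line 2. With a sample left out the change was 0.103 to 0.168.

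**Figure D4:**
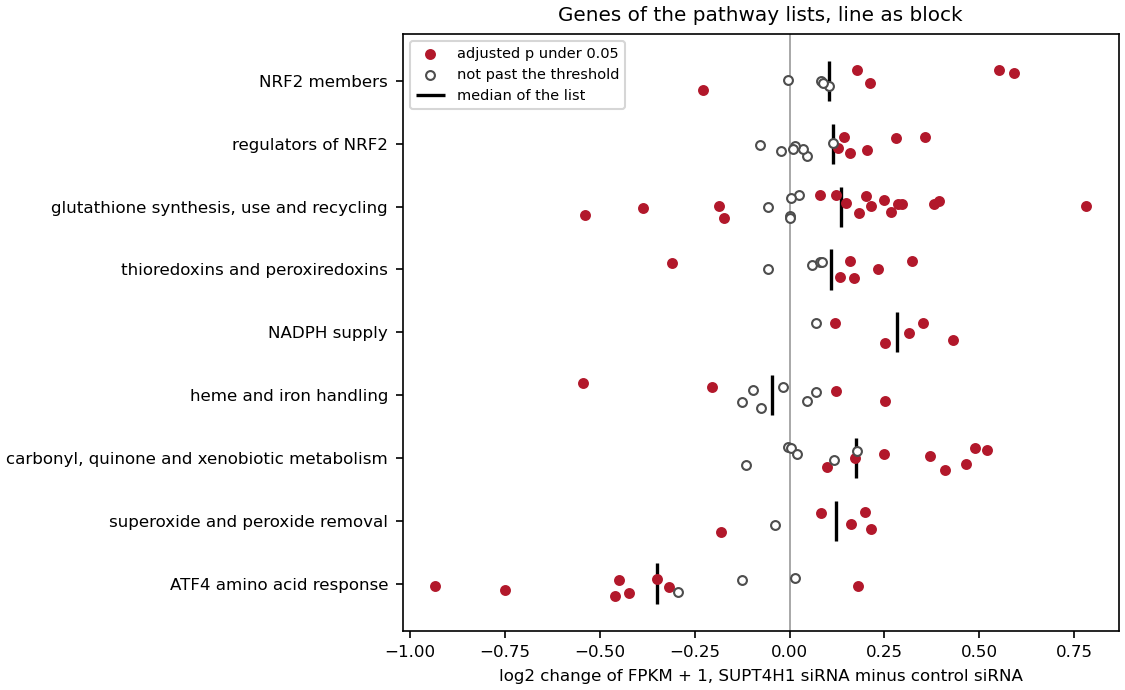
Log2 change of FPKM + 1, SUPT4H1 siRNA minus control siRNA with the line as block, of each tested gene of the 9 NRF2 genes (top) and the 8 pathway lists. Filled points have an adjusted p under 0.05 and black bars are list medians. The median is highest for NADPH supply, at 0.28, and lowest for the ATF4 list, at -0.35.

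SLC7A11 is also a known target of the transcription factor ATF4, which drives an amino acid response. Of the 11 tested genes of the ATF4 list 1 rose and 7 fell, with a median log2 change of -0.35. Over all genes tested, 26.9% were called higher and 15.2% lower. Without the line block 0 of the 11 rose and 2 fell, and in line 1 not every gene of the list was lower. TRIB3, a pseudokinase, averaged 15.8 FPKM with SUPT4H1 siRNA and 28.1 FPKM with control siRNA (-0.93 ± 0.152, SE), and DDIT4, an inhibitor of mTORC1 signalling, averaged 46.9 FPKM with SUPT4H1 siRNA and 78.3 FPKM with control siRNA (-0.75 ± 0.088). DDIT3, the stress factor CHOP, fell by 0.46 and SESN2, sestrin 2, rose by 0.18 (log2). SESN2 was at 0.065 in line 2 (limma adjusted p = 0.19) and 0.295 in line 1 (limma adjusted p = 3.19e-04). The response differed between the lines in 10 of the 11 genes, beside 9.89% of all genes tested, and in these 10 it was lower in line 2. The other lists held such genes too: 7 of 14 of carbonyl, quinone and xenobiotic metabolism, 4 of 6 of NADPH supply and 4 of 10 of heme and iron handling, all of them lower in line 2, 4 lower and 1 higher of 22 glutathione genes, 1 lower and 1 higher of 13 regulators, 2 higher of 6 genes of superoxide and peroxide removal, and 0 of 10 thioredoxins and peroxiredoxins. FTH1 and FTL of the heme list and AKR1C2 and AKR1C3 of the carbonyl list have closely related copies, so their values are uncertain. Over the 92 genes that made 30 lower and 4 higher, beside 4.49% of all genes tested lower. Of the 1131 genes tested that passed in either direction, 513 were lower in line 2. The lists were chosen with earlier results of these data known. ATF4 itself, named for its role, averaged 152 FPKM with SUPT4H1 siRNA and 219 FPKM with control siRNA in line 2 (log2 change -0.53), and 194 FPKM with SUPT4H1 siRNA and 219 FPKM with control siRNA in line 1 (log2 change -0.17). The difference between its responses was -0.35 with a limma adjusted p of 9.88e-04. That of TRIB3 was -0.88 (limma adjusted p = 3.87e-04). That of SESN2, -0.23 (limma adjusted p = 0.0251), lost its call without control replicate 1 or SUPT4H1 siRNA replicate 2 of line 1, without control replicate 2 of line 2 and without either SUPT4H1 siRNA replicate of line 2, at limma adjusted p-values of 0.0548 to 0.0917. SLC7A11, with -0.73, and NQO1, with -0.45, differed in the same direction as these genes and as the called genes of the NADPH, carbonyl and heme lists, so that direction is not particular to the ATF4 list. The part of ATF4 in the result for SLC7A11 was not tested.

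**Figure D5:**
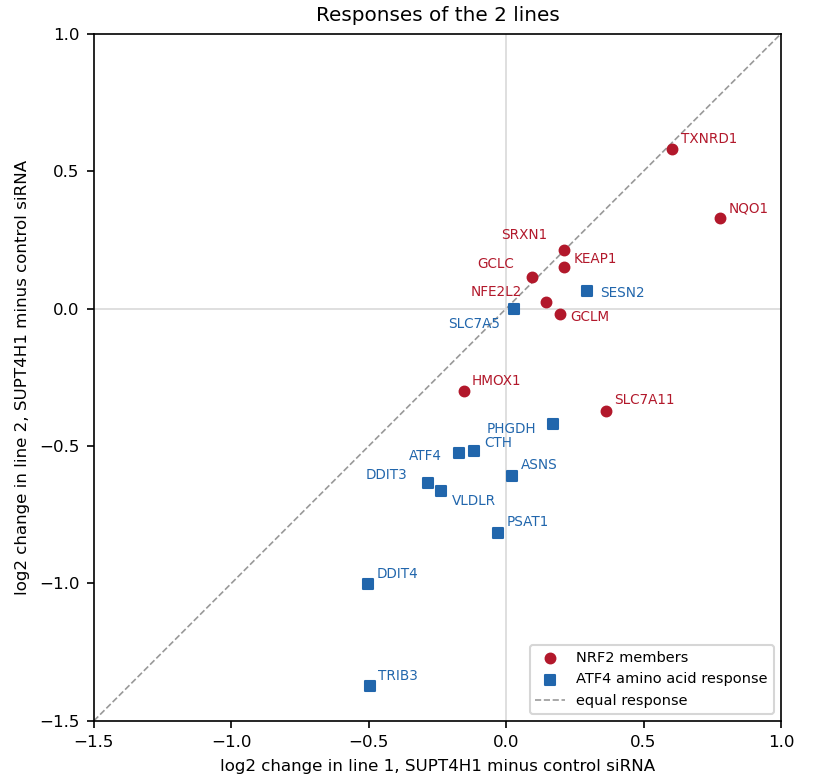
Log2 change of FPKM + 1 with SUPT4H1 siRNA in line 2 (vertical) against that in line 1 (horizontal) for the 9 NRF2 genes (red circles) and the 11 tested genes of the ATF4 list (blue squares); the dashed line marks equal responses. TXNRD1 and SRXN1 lie near the line, and SLC7A11, at -0.37 in line 2 and 0.36 in line 1, lies below it together with most of the ATF4 list.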

How the data were processed

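PolyA RNA of 8 fibroblast samples was sequenced. The authors deposited FPKM per gene with interval bounds and a status, on hg19 per the submitters' processing notes. Aligner, quantification tool, annotation, strand use and fragment counts: not given in the sources used here. FPKM are relative to the sum over all genes, so a rise in abundant transcripts lowers the others.

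Of 27032 rows per sample, 1516 on alternative haplotypes, unplaced contigs or chromosome Y and 2115 of small RNAs were left out, and rows of one symbol were summed (23105 symbols). Genes with a mean FPKM of 1 or more and status OK in every sample were tested (11431; the status left out 12). Limma 3.58.1 (R 4.3.3) with a mean-variance trend was run on log2(FPKM + 1), with line as a block, and p-values were adjusted by Benjamini-Hochberg over all genes tested with a threshold of 0.05. The series design groups samples by siRNA alone. The block was used because samples of one line share their cells: deviations from siRNA means correlated at 0.876 to 0.894 in the 8 pairs of samples of one line and different siRNA. Responses per line and their difference came from a fit of 4 group means. Code was tested on simulated data.

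The 9 genes and all lists were chosen with earlier results of these data known. Named genes are the 9, SUPT4H1, the 3 largest rises and falls past the threshold in each list, and the 3 genes most like NFE2L2 and TXNRD1. ATF4 was named besides, and some genes that the rule names are not reported here. Alternatives were no line block, a block of line and replicate number, a pseudocount of 0.1, no filter, a mean FPKM of 5, median-ratio scaling, no trend, array weights and leaving out each sample.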

Additional observations from a re-analysis of the deposited data

Results flagged for a closer look

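The response of 2 genes differed between the lines by the interaction of siRNA and line. For NQO1 the log2 change in line 2 minus that in line 1 was -0.450 (limma adjusted p = 2.45e-04), and the change itself was above 0 in both lines. For SLC7A11 it was -0.733 (limma adjusted p = 2.55e-05), with both SUPT4H1 siRNA samples below both control samples in line 2 and above them in line 1. The same direction was seen in 30 of the 34 genes of the pathway lists whose response differed between the lines, ATF4 (-0.354) and EPHX1 (-0.387) among them. Of these 30 genes, 10 belong to the ATF4 list, and all lists were chosen with earlier results of these data known. The count therefore describes the lists and is no separate support for NQO1 and SLC7A11. Of all genes tested, 1131 differed in response and 513 of these had this direction. What sets this direction was not tested.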

How the results depend on the processing

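Without the line as a block, limma called 0 genes of the 9 higher and 0 lower (3 at an unadjusted p under 0.05), and 612 genes in all, 408 higher and 204 lower, against 4816 with it. Adjusted p-values of the 5 genes called with the block were then 0.0553 for HMOX1, 0.106 for TXNRD1, 0.165 for SRXN1, 0.265 for KEAP1 and 0.284 for NQO1. Replicate numbers did not pair samples: differences between replicates 1 and 2 correlated at 0.052 to 0.103 between siRNAs in the 2 lines. With line and replicate number as a block, 4 of the 9 were called higher and 1 lower, and GCLM gained a call for a different response (adjusted p = 0.0241). GCLM also gained it at a mean FPKM of 5 or more (0.0445, where GCLC was not tested) and after median-ratio scaling (0.0387). Leaving out 1 sample at a time, which leaves 1 sample in a group that is assumed to vary like the others, gave 4 to 6 of the 9 genes called higher, 1 lower, 8 or 9 different between the lines, 2 to 4 with a different response (4 without SUPT4H1 siRNA replicate 1 of line 1), 3971 to 4575 genes called in all, and a log2 difference of the GCLM to GCLC ratio of -0.102 to 0.017. The values of the 9 genes that reversed all belong to differences that did not pass the threshold: NFE2L2 in line 2 was -0.017 after scaling and -0.005 to 0.052 with a sample left out, GCLM in line 2 was -0.052 to 0.010, and SLC7A11 over both lines was 0.032 with array weights and -0.087 to 0.076 with a sample left out. For the difference of responses, GCLC ranged from -0.085 to 0.130, TXNRD1 from -0.054 to 0.006 and SRXN1 from -0.035 to 0.044 with a sample left out, and SRXN1 was -0.006 after scaling. For MAFF (0.0505), CHAC1 (0.0598) and BLVRB (0.0929) the call was lost without the filter, and for BLVRB also after scaling (0.114) and without the trend (0.0585). The differences of responses of SESN2, CAT and SOD2 lost their calls without the filter (0.0701, 0.0585 and 0.143) and without the trend (0.0532, 0.0598 and 0.0971), that of SOD2 also with a pseudocount of 0.1 (0.051), and those of DDIT3 and TFRC without the filter (0.0656 and 0.0585). CAT in line 1 lost its call under both and after scaling (0.0508 to 0.0675), and SOD2 in line 2 gained one after scaling (-0.109, 0.033) and was -0.139 to 0.000 with a sample left out. A pseudocount of 0.1 moved GPX3 to 1.424, OSGIN1 to 0.626, SLC40A1 to -0.396 and SUPT4H1 to -4.006. The causes were not tested beyond the construction of each alternative. Depth is unknown, and intervals are widest for GCLC.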
